A study of Bos taurus with 34 samples.

Results

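The comparison covered 24 individual bovine blastocysts, 8 labelled as CSF2KO (called knockouts here) and 16 as controls. They came from 26 blastocysts and 34 embryos in the whole series. The libraries were chosen by 2 measured values, the number of genes detected (at least 5000) and the number of reads recovered (at least 50000). The sample labels write the genotype as CSF2KO, whereas the series title names the gene as CSF2RA, the alpha subunit of the receptor for colony-stimulating factor 2. The kept knockouts were 6 females and 2 males, and the kept controls were 7 females and 9 males. Each embryo was sequenced on its own from total RNA with a stranded mRNA kit. The labels of every embryo, controls included, list a treatment with recombinant Wnt5A and growth in vitro, while the series text places the embryos in vivo. The labels do not give the editing reagent, the age of the embryos, their sires and dams or the days of collection, and these could not be taken into account. Control 72 is male in its title and female in the name of its data column, and it was treated as male.

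Colony-stimulating factor 2, also called GM-CSF, is a cytokine secreted by the reproductive tract. Its receptor pairs an alpha subunit that binds the ligand with a beta subunit, encoded by CSF2RB, that engages the kinase JAK2 and the transcription factor STAT5. The blastocyst is the stage at which an outer epithelium, the trophectoderm, encloses a fluid-filled cavity and an inner cell mass that divides into epiblast and hypoblast. Each embryo was measured as a whole, so fewer cells of a type and less RNA per cell cannot be told apart.

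Among the kept libraries the one nearest the limits was control 18, with 8667 genes and 115512 reads. Left out were knockout 57, with 7066 genes but 44879 reads, and control 12, with 893152 reads but 2791 genes. In control 12 17.3% of reads came from mitochondrially encoded genes, against 2.34% to 4.61% in the kept libraries. Kept knockouts had 122766 to 988622 reads and kept controls 115512 to 17598170. The medians were 416501 and 845208 reads, or 254758 and 878069 over all 26 blastocysts. Because reads chose the libraries, no test of reads between genotypes is reported here. When each kept embryo was thinned at random to 115512 reads, knockouts had 8475 to 9432 genes detected (median 8872.5) and controls 8215 to 9451 (median 8977). Among the kept embryos the groups thus overlapped over nearly their whole range at equal depth. Genes detected also chose the libraries, so this overlap is only a description of the embryos kept.

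**Figure D1:**
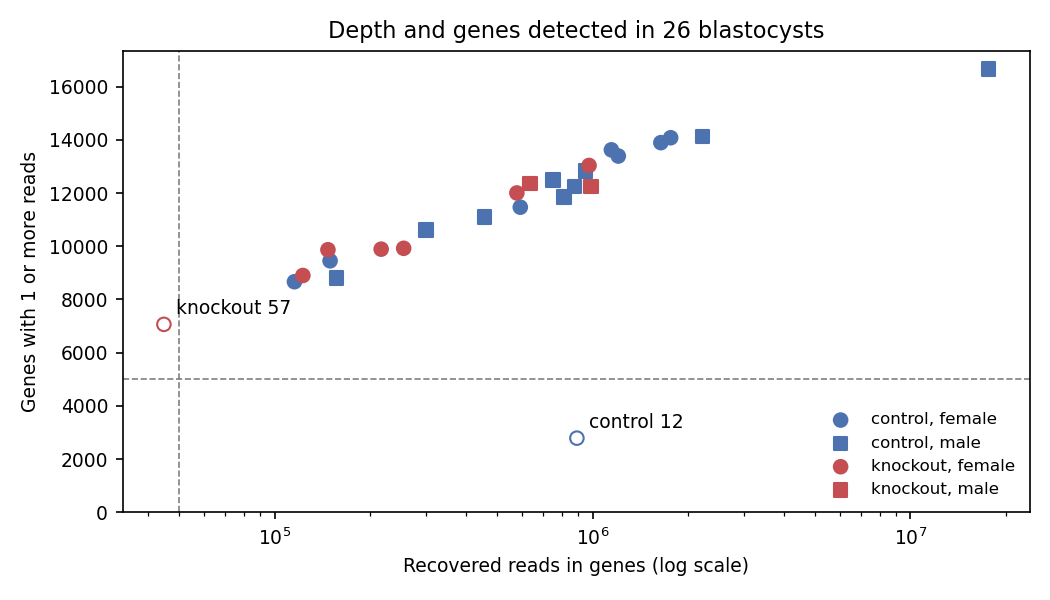
Reads recovered per blastocyst on a log scale (x) against genes with 1 or more reads (y); red is knockout, blue control, circles female, squares male, and open symbols the 2 libraries left out. Dashed lines mark 50000 reads and 5000 genes; control 12 lies below the genes limit and knockout 57 left of the reads limit.

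The receptor genes themselves were almost unread. The row named CSF2RA in the table, on chromosome 3 at 119425809 to 119430912 of the cattle build ARS-UCD1.2, had 0 reads in the 8 kept knockouts, 2 reads in the 16 kept controls and 2 reads in the left-out knockout 57. A count of 0 among the 3919255 knockout reads allows up to 0.766 CPM (reads scaled to a common library size; here on total reads), which is above the 0.0651 CPM of the controls. No difference was therefore detectable at this depth, and the reads do not check the knockout labels. RefSeq places CSF2RA of a later cattle assembly on chromosome Y and not on chromosome 3, so whether the row is the edited gene could not be established here. CSF2RB had 1 read in knockouts and 3 in kept controls.

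With all pairs pooled, the genotype labels did not divide the embryos by their whole profile. Over 3912 genes at equal depth, the median correlation across genes (Pearson's r of log2(reads + 1)) was 0.770 for pairs of knockouts, 0.766 for pairs of controls and 0.764 for a knockout with a control. The genes are not independent replicates and the values are a description. The value for pairs of controls includes the 5 controls described next. It does not show how the other 11 controls compare with the knockouts. A different division ran through the controls. Controls 35, 36, 37, 51 and 52, of which 4 are male, had a median r of 0.668 to 0.721 with the other controls, and the remaining 11 controls had 0.746 to 0.813. The more abundant of the 2 rows named bta-mir-2887-1 in the table, a microRNA gene, was at 4710 to 14863 CPM in those 5 embryos. It was at 34138 to 49551 CPM in the other 11 controls and at 19371 to 91223 CPM in the knockouts. They held from 156832 to 17598170 reads. The labels name no batch for any embryo, and what sets the 5 apart was not tested. Because they were found from expression values, the results without them are given below as a second description.

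Across genes, no difference between knockouts and controls passed the test. Of 8481 genes with 5 or more reads in at least 12 of the 24 embryos, 0% had an adjusted p under 0.05 by limma-trend on log2(CPM + 5) with sex as a term and Benjamini-Hochberg adjustment. The lowest adjusted value of any gene was 0.997. With no adjustment and a threshold of 0.05, 100 genes were higher (1.18% of those tested) and 163 lower (1.92%) in knockouts, 263 together where a threshold of 0.05 would pass 424 on average if no gene differs. Limma voom on the recovered reads, with or without quality weights for embryos, likewise called 0 genes. No tested gene had groups that did not overlap. The 16 controls alone could meet the read minimum of 12 embryos, and the 8 knockouts alone could not. Genes read only in knockouts therefore could not enter, and the counts higher and lower are not on an equal footing. The median standard error of a log2 change was 0.29, and for 6830 genes (80.5%) the 95% interval lay within 1 log2 unit of 0. The direction of the genes below the unadjusted threshold was not stable: it was 131 higher and 62 lower when all 26 blastocysts entered. Adding control 12 alone gave 146 higher and 34 lower, and adding knockout 57 alone gave 80 higher and 248 lower. Quantile scaling gave 147 higher and 156 lower, and a term for log10 reads gave 205 higher and 115 lower. Without the 5 controls, 329 genes were higher and 486 lower at the unadjusted threshold, and 0 had an adjusted p under 0.05 (smallest 0.125).

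Because no gene passed, the genes named below are those with the smallest unadjusted p in each direction and those of the chosen lists. Each had an adjusted p of at least 0.997 unless another is given. Counts of knockouts above or below the control median only describe these picked genes. The share of all genes tested with such counts is not given here, so they are not evidence of a consistent difference. FDPS, which makes farnesyl pyrophosphate in the mevalonate route to cholesterol and lies at chr3:15311058-15320377, had the smallest p. Its level was 11.2 CPM in the lowest knockout, 29.1 in the median and 47.0 in the highest, against 32.1, 65.2 and 131 CPM in controls. All 8 knockouts lay below the control median, and the ranges overlapped between 32.1 and 47.0 CPM. The means were 30.1 ± 11.2 CPM (SD, n = 8) and 70.8 ± 28.1 CPM (SD, n = 16), a log2 difference of -1.02 ± 0.24 (SE) with an unadjusted p of 0.00016 by limma. FDPS was lower in knockouts under each of the 43 alternatives run, by -1.39 to -0.77 on the log2 scale.

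Among the other genes with low values in knockouts was NT5C, a cytosolic nucleotidase that removes phosphate from deoxyribonucleotides. It was at 25.7 to 107 CPM in knockouts (median 40.5) and 56.7 to 117 in controls (median 80.4), with 7 of 8 knockouts below the control median (log2 difference -0.75 ± 0.21, SE). DDIT3, the stress-induced transcription factor CHOP, was at 14.5 to 128 CPM (median 41.9) against 20.9 to 161 (median 69.1), a log2 difference of -0.97 ± 0.28. TSPAN17, a tetraspanin membrane protein, was at 0 to 14.05 CPM in knockouts and 6.98 to 34.1 CPM in controls (log2 difference -0.97 ± 0.27). EIF4E3, a cap-binding relative of the translation initiation factor eIF4E, had a read in 4 of 8 knockouts and in all 16 controls, but only 26 reads in all knockouts together. For both, a single read in the shallowest knockout is worth 7.40 CPM, so the lowest values are coarse. The remaining 5, TMEM131L, PNPLA4, ALDH18A1, SLC19A2 and MEAK7, had 14 to 45 reads over all knockouts and log2 differences of -1.17 to -0.82. TSPAN17, EIF4E3 and these 5 met the read minimum wholly or almost wholly through controls. Their low levels in knockouts are therefore not independent support for a difference. ALDH18A1 is an early enzyme of proline synthesis and SLC19A2 carries thiamine into the cell.

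Among genes with high values in knockouts, RBFOX2, a regulator of alternative splicing at chr5:73899444-74189188, had the smallest p. It was at 137, 220 and 481 CPM in the lowest, median and highest knockout, against 41.6, 112 and 258 CPM in controls. Every one of the 8 knockouts exceeded the median control, though the ranges overlapped between 137 and 258 CPM. The means were 260 ± 120 CPM (SD, n = 8) and 116 ± 51.1 CPM (SD, n = 16), and the log2 difference was 0.92 ± 0.23 (SE; unadjusted p = 0.000292, limma). The 5 controls that stood apart held 41.6 to 94.5 CPM of RBFOX2, and without them the log2 difference was 0.76 ± 0.20. GABRB1, a subunit of the GABA type A receptor, was at 36.8 to 93.6 CPM in knockouts (median 62.9) and 0 to 88.7 in controls (median 16.6), a log2 difference of 1.35 ± 0.38. It stayed higher in knockouts under each alternative that gave a value, from 0.10 to 2.28 on the log2 scale.

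NPAT, a nuclear protein known for activating histone genes at the start of S phase, took an unusual share of the libraries. Its row held 2.38% to 8.82% of all reads in knockouts (median 4.77%) and 0.759% to 4.60% in controls (median 2.34%). In CPM the means were 55015 ± 27198 (SD, n = 8) and 24869 ± 10778 (SD, n = 16), with 7 of 8 knockouts above the control median (log2 difference 0.97 ± 0.28, SE). A level this far above that of most genes was not examined further, since no read positions were used here. The other 7 were YTHDC2, ATP10A, GFPT2, TRIB2, PLK4, METTL17 and FICD, with log2 differences of 0.60 to 1.02. PLK4 drives duplication of centrioles, GFPT2 feeds glucose into the hexosamine pathway and FICD modifies the endoplasmic reticulum chaperone BiP. TRIB2, METTL17 and FICD were above the control median in 8 of 8 knockouts, YTHDC2 and GFPT2 in 7, and ATP10A and PLK4 in 6. All 20 genes of both directions kept their sign under every alternative that gave them a value. The 20 were picked by p in the same embryos that the alternatives reuse, so a stable sign is not independent evidence.

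**Figure D2:**
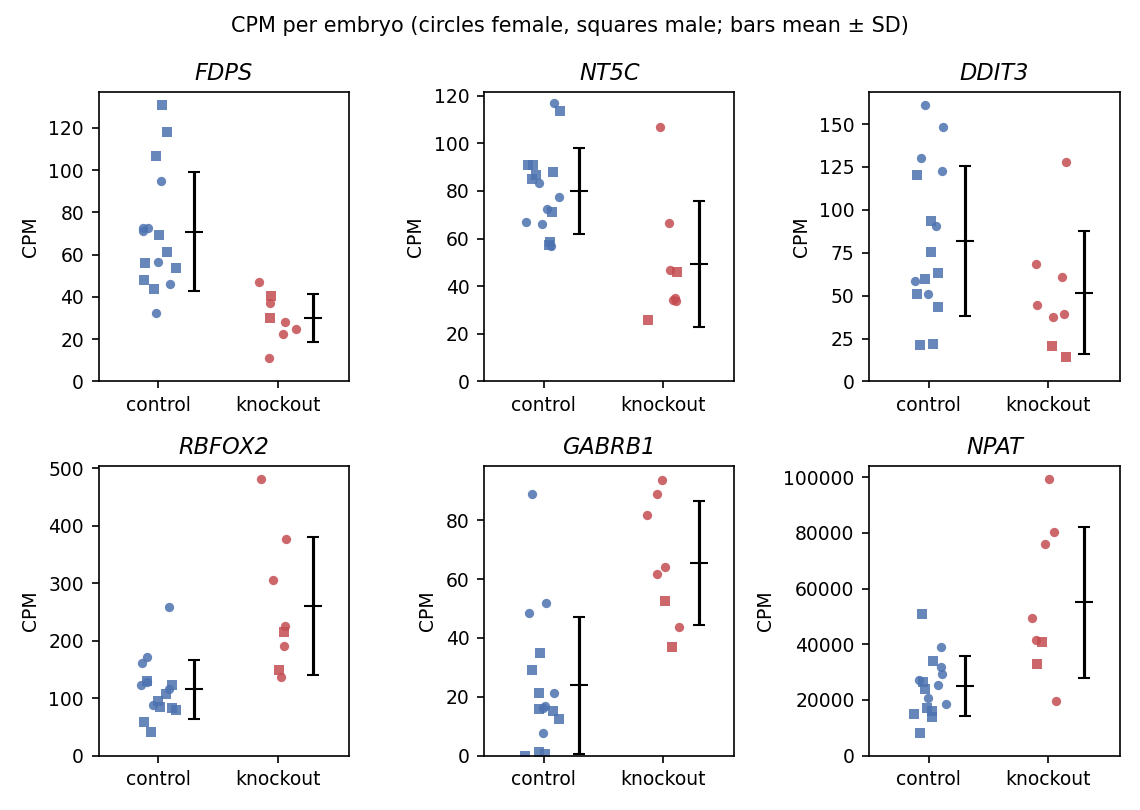
CPM of 6 genes in each kept blastocyst (y, linear from 0) by genotype (x); circles are females, squares males, and bars the mean ± SD of 16 controls or 8 knockouts. FDPS lies below the control median in all 8 knockouts and RBFOX2 above it in all 8, while every pair of groups overlaps.

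The gene lists were described by counts beside those of all genes tested, of which 3836 were higher and 4645 (54.8%) lower in knockouts with a median log2 difference of -0.03. No list had a member that passed the test. Of 45 lists, 44 had at least 1 tested gene.

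Cholesterol synthesis stood farthest from the median of all genes among lists with 5 or more tested genes. Cells build cholesterol from acetyl-CoA through mevalonate, farnesyl pyrophosphate, squalene and lanosterol, and the transcription factors SREBF1 and SREBF2 raise the enzymes when sterols are scarce. Of 28 listed genes 22 were tested, 3 were higher and 19 lower in knockouts, and the median log2 difference was -0.54. Of these, 7 were lower at an unadjusted p under 0.05 and 0 higher. Among all genes tested, 1.92% were lower at that threshold. The list is one on which earlier results of these data were known, so the count is not independent evidence.

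In the mevalonate arm, IDI1, which isomerises the 5-carbon building block, was at 14.8 to 65.5 CPM in knockouts (median 29.2) and 13.5 to 146 in controls (median 57.3), a log2 difference of -0.79 ± 0.32. MVD, the decarboxylase before it, lay below the control median in 8 of 8 knockouts (15.6 ± 6.19 against 29.5 ± 17.97 CPM). HMGCS1, which makes HMG-CoA at the start of the arm, ranged from 16.9 to 93.6 CPM in knockouts and from 16.1 to 461 CPM in controls. In the later, sterol-forming steps, FDFT1, which makes squalene, had a log2 difference of -0.88 ± 0.42, MSMO1 of -0.71 ± 0.34 and EBP of -0.77 ± 0.26. EBP, a sterol isomerase, was at 26.8 to 132 CPM in knockouts (median 42.4) and 48.4 to 240 in controls (median 89.5). STARD4, which moves cholesterol between membranes, was at 0 to 14.8 CPM against 0 to 72.6 CPM. Among regulators, SREBF2 had a log2 difference of 0.01 ± 0.29, SREBF1 of 0.07 ± 0.30 and SCAP, their sterol-sensing escort, of 0.19 ± 0.26. MVD, HMGCS1, FDFT1, MSMO1, SREBF2, SREBF1 and SCAP were picked for description after their values were seen. So was INSIG1, the sterol-dependent retention factor, which failed the read minimum and was not tested. It was at 0 to 18.7 CPM in knockouts (median 7.67) and 1.30 to 127 CPM in controls (median 30.3), and 0 of 8 knockouts lay above the control median.

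**Figure D3:**
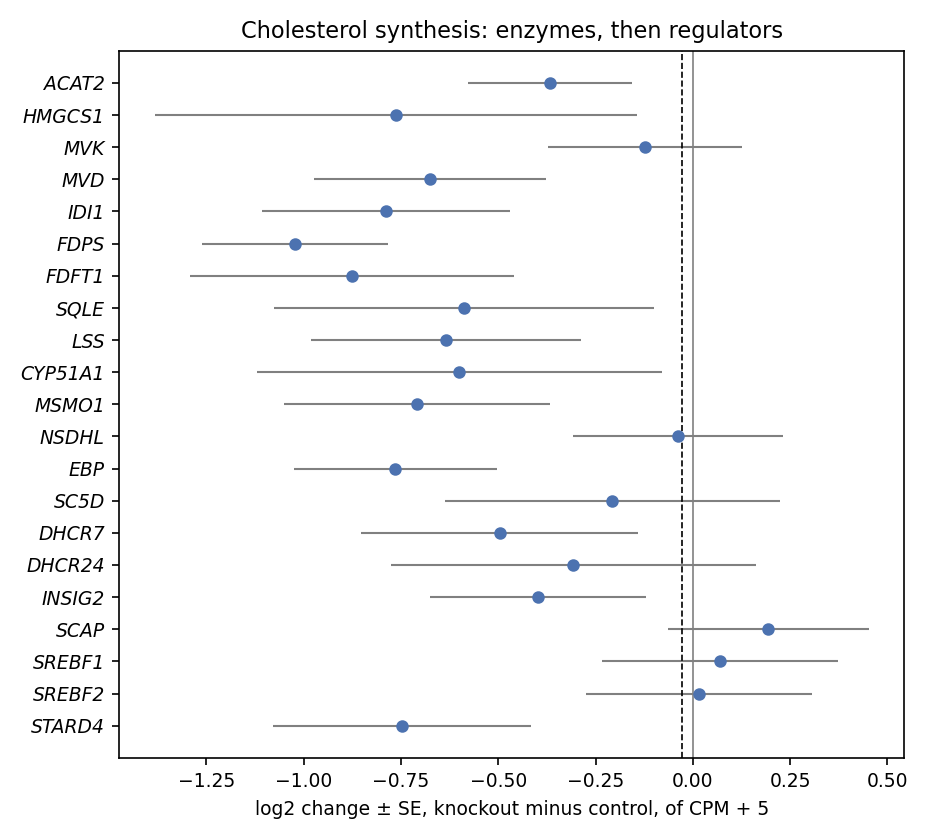
Log2 difference of CPM + 5, knockout minus control, with its SE (x) for 21 of the 22 tested genes of cholesterol synthesis (y), enzymes first in pathway order and then regulators; the dashed line is the median of all genes tested, -0.03. All those drawn but SCAP, SREBF1 and SREBF2 lie below 0, and FDPS is lowest at -1.02.

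The SD among controls was larger than the difference between genotypes. The mean log2(CPM + 5) of the 22 cholesterol genes was 5.09 ± 0.28 in knockouts (SD, n = 8; range 4.60 to 5.53) and 5.57 ± 0.61 in controls (SD, n = 16; range 4.91 to 6.50). The 5 controls that stood apart held 4.91 to 5.32, inside the knockout range, and the other 11 held 4.98 to 6.50. INSIG1 showed the same division, at 1.30 to 20.9 CPM in the 5 controls and 2.54 to 127 CPM in the 11. FDPS did not, at 43.6 to 94.7 CPM in the 5 and 32.1 to 131 CPM in the 11. Without the 5, 21 of the 22 genes were lower in knockouts, 12 of them at an unadjusted p under 0.05, and the median log2 difference was -0.72. In that fit 5.73% of all genes tested were lower at the same threshold. The 5 lay toward the low end of the controls, so leaving them out moves the difference further down by construction. In females alone the median was -0.43, and at equal depth it was -0.54. Each is over only those members that met the read minimum in that fit. LSS and STARD4 had no value in females, and the number of members at equal depth is not given here.

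In energy metabolism the direction of nuclear oxidative phosphorylation and of the citrate cycle turned on those 5 controls. Of 72 nuclear genes of oxidative phosphorylation, which encode most subunits of the respiratory chain, 31 were higher and 41 lower in knockouts with a median of -0.02, and 0 were at an unadjusted p under 0.05. Their mean log2(CPM + 5) was 9.04 to 9.50 in the 5 controls, 7.05 to 8.13 in the 11 others and 7.21 to 8.74 in the knockouts. Without the 5, 67 of 72 were higher in knockouts, 34 of them at an unadjusted p under 0.05, and the median was 0.42. In that fit 3.88% of all genes tested were higher at the same threshold. The 5 held the highest means of this list among controls, so leaving them out moves the difference upward by construction. NDUFA10 and NDUFA9, subunits of complex I, had log2 differences of 0.25 ± 0.20 and 0.26 ± 0.21 with all controls and 0.47 ± 0.15 and 0.49 ± 0.16 without the 5. Of the 13 mitochondrially encoded genes 11 were lower in knockouts with a median of -0.15, or -0.16 without the 5. ATP8 was at 94.4 ± 38.0 CPM in knockouts and 157 ± 97.2 in controls. Its log2 difference was -0.53 ± 0.26 with all controls and -0.25 ± 0.19 without the 5. For the citrate cycle 9 of 22 genes were higher and 13 lower with a median of -0.02, and without the 5 it was 15 higher and 7 lower. The pyruvate dehydrogenase subunit DLAT had a difference of -0.26 ± 0.27.

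**Figure D4:**
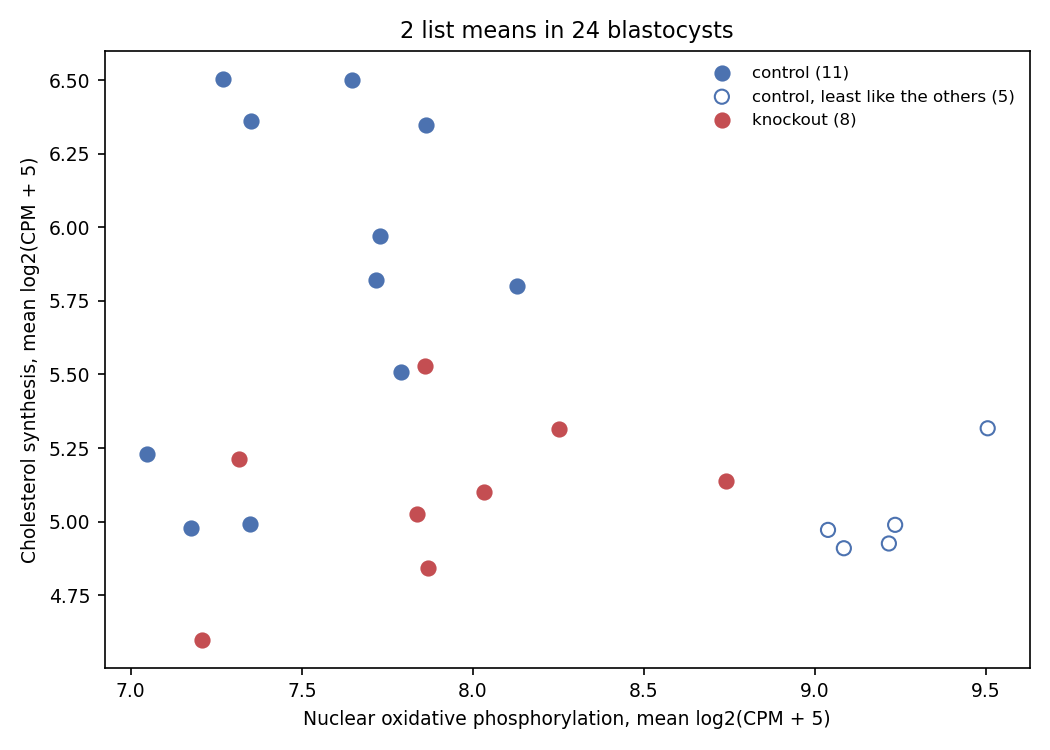
Mean log2(CPM + 5) of 72 tested nuclear oxidative phosphorylation genes (x) and of 22 cholesterol synthesis genes (y) in each kept blastocyst; filled blue marks 11 controls, open blue the 5 controls least like the others, red the 8 knockouts. The 5 open points lie at 9.04 or above on the x axis, to the right of every knockout, and the controls alone exceed 5.53 on the y axis.

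Ribosomal, proteasome, splicing and RNA polymerase lists also turned without the 5 controls. In each, the 5 held the highest list means among controls, so leaving them out moves the difference upward by construction. Of 80 cytosolic ribosomal protein genes, 18 were higher and 62 lower with a median of -0.07, and without the 5 controls 59 were higher and 21 lower with a median of 0.19. RPS15A and RPL23A had the smallest p, with 150 ± 95.5 against 208 ± 82.3 CPM and 339 ± 219 against 482 ± 202 CPM. Proteasome genes went from 11 of 34 higher to 25 of 34 higher without the 5, and splicing factors from 18 of 45 to 27 of 45. PSMA5 and PSMD11, proteasome subunits, had differences of -0.30 ± 0.23 and -0.22 ± 0.18. Among splicing factors HNRNPA1 was at 571 ± 310 CPM in knockouts and 746 ± 140 in controls, and PRPF19 at 75.1 ± 24.01 and 57.8 ± 20.9. Knockouts 3 and 4 were again lowest for HNRNPA1, at 169 and 170 CPM, with 440 to 1013 CPM in the other kept knockouts. Translation factors were lower in 27 of 43 in both fits, with PAIP1, a partner of the poly(A)-binding protein, below the control median in 8 of 8 knockouts (24.8 ± 6.27 against 39.3 ± 13.7 CPM) and the release factor ETF1 in 6. Among 38 genes of the RNA polymerases and general factors 23 were lower (median -0.05), against 20 higher and 16 lower without the 5 (median 0.08), and POLR2K and GTF2F1 had differences of -0.70 ± 0.35 and -0.30 ± 0.17.

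Glycolysis genes were lower in 14 of 17 with a median of -0.12 and in 16 of 17 without the 5 controls. ENO1, enolase, was at 483 to 937 CPM in knockouts (median 704) and 314 to 1633 in controls (median 921), a log2 difference of -0.48 ± 0.21. In the 5 controls it was at 314 to 717 CPM and in the 11 others at 684 to 1633, and without the 5 its difference was -0.68 ± 0.16. GAPDH, the glycolytic dehydrogenase, was at 2201 ± 559 CPM in knockouts and 2809 ± 529 in controls. Of the 24 genes of fatty acid handling 17 were lower (median -0.08). HADH, of the mitochondrial cycle of fatty acid oxidation, had a difference of -0.39 ± 0.25. Genes of the pentose phosphate route and nucleotide synthesis were lower in 18 of 27 (median -0.13), with PRPS1 at -0.68 ± 0.42 and CTPS1, which makes CTP, at 0.56 ± 0.28.

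Genes of the CSF2 pathway itself gave no common direction. Of 36 listed, 23 were tested, 13 were higher and 10 lower with a median of 0.03. JAK2, STAT5A and STAT5B fell short of the read minimum. JAK1 was at 7.40 to 58.4 CPM in knockouts (median 40.9) and 27.4 to 70.1 in controls (median 53.2), a log2 difference of -0.43 ± 0.24. SOS1, which activates RAS, was at 4.68 to 37.02 CPM against 0 to 34.7 (0.67 ± 0.34). STAT3 was level, at 108 ± 33.3 and 103 ± 29.8 CPM with a 95% interval of -0.40 to 0.42. Of 9 tested STAT5 targets 8 were lower with a median of -0.14. The exception was CCND2, cyclin D2, which was at 170 to 312 CPM in knockouts and 97.8 to 468 in controls, above the control median in 8 of 8 (0.44 ± 0.22). PIM2, a survival kinase, had a fitted difference of -0.33 ± 0.30, but its unfitted median was 8.65 CPM in knockouts and 7.81 in controls, and the difference was -0.04 without the sex term.

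Markers of the 3 blastocyst lineages were present in both groups. The summed level of 22 trophectoderm factors was 2238 to 3443 CPM in knockouts (median 2870) with a control median of 2942 CPM. In controls it ran from 2170 to 42380 CPM, the highest being control 35, where TFAP2A alone took 3.69% of reads. CDX2, the defining trophectoderm factor, was at 110 ± 36.3 CPM in knockouts and 109 ± 33.4 in controls (95% interval of the log2 difference -0.49 to 0.42). GATA3 and TFAP2C had intervals of -0.41 to 0.71 and -0.44 to 0.33. These 3 and the other defining factors below were picked to check the tissue label. Of 18 tested factors 8 were higher and 10 lower, with ELF3, GRHL1, TEAD4 and DLX3 having the smallest p. GRHL1, an epithelial transcription factor, was at 59.2 to 157 CPM in knockouts (median 103) and 72.7 to 227 in controls (median 160), with 8 of 8 knockouts below the control median (-0.49 ± 0.20). ELF3 was at 54.9 ± 34.4 against 89.1 ± 53.8 CPM (-0.85 ± 0.31), and DLX3 at 21.9 ± 15.7 against 32.8 ± 22.8. TEAD4, the Hippo pathway's partner for YAP1 in trophectoderm, ran the other way at 119 ± 42.2 against 80.3 ± 22.1 CPM (0.48 ± 0.21). Of 15 trophoblast products 14 were lower with a median of -0.30. Over the members tested in each fit, it was -0.15 in females alone and 0.003 with all 26 blastocysts. KRT19, an epithelial keratin, was at 259 to 2451 CPM in knockouts (median 1284) and 960 to 4074 in controls (median 1932), a difference of -0.71 ± 0.36, and TKDP1, a trophoblast protease inhibitor of ruminants, had a read in 4 of 8 knockouts and 14 of 16 controls.

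In the inner cell mass, epiblast and pluripotency genes were evenly divided, 8 higher and 8 lower with a median of -0.13. The highest was DPPA3 at 0.62. NANOG, PRDM14 and TDGF1 are described because they had the smallest p, and all are among the 8 that were lower. POU5F1 was at 507 ± 113 CPM in knockouts and 561 ± 199 in controls (95% interval -0.38 to 0.40). NANOG was at 0 to 56.2 CPM (median 29.8) against 2.60 to 111 (median 62.9), below the control median in 8 of 8 knockouts (-0.86 ± 0.49). PRDM14, a repressor that guards pluripotency, was at 45.9 ± 27.4 against 71.7 ± 29.0 CPM. TDGF1, the NODAL co-receptor Cripto, was at 0 to 23.8 CPM (median 2.53) in knockouts and 0 to 41.1 (median 13.6) in controls. Its difference was -1.07 ± 0.43, or -1.42 ± 0.38 without the 5 controls. TDGF1 met the read minimum almost wholly through controls. TGFBR1, also in the NODAL, BMP and TGF-beta list, was at 5.72 ± 4.79 against 13.7 ± 5.83 CPM, and 9 of the 13 genes of that list were lower (median -0.16). Of 15 hypoblast genes 10 were lower with a median of -0.21, or 12 with a median of -0.41 without the 5 controls. PDGFRA, a receptor that marks hypoblast, was at 14.05 to 106 CPM (median 30.5) in knockouts and 16.1 to 95.5 (median 68.97) in controls, and APOE had a difference of -0.67 ± 0.37. GATA6 was at 278 ± 76.9 and 301 ± 89.0 CPM (interval -0.54 to 0.26), whereas SOX17 was too variable to place, with an interval of -1.50 to 0.80.

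Markers of other tissues overlapped between the groups. The summed level of 12 leukocyte markers was 2.23 to 31.8 CPM in knockouts and 0 to 19.5 in controls, with PTPRC at 0 in every knockout and 2 reads in 1 control. Fibroblast markers summed to 22.5 to 84.3 CPM against 14.1 to 98.1, and erythrocyte markers to 5.62 to 54.5 against 9.30 to 69.8, with HBB and HBE1 at 0 in every kept embryo. Reproductive tract markers summed to 30.1 to 364 CPM against 6.98 to 129, and cumulus cell markers to 145 to 740 against 242 to 1134. The cumulus sum was carried mostly by PTGS2, at 412 ± 215 and 550 ± 232 CPM. Resting mostly on 1 gene, it does not tell whether cumulus cells were present. HAS2, FSHR and CYP19A1 had means of 0.20, 4.93 and 5.31 CPM in knockouts and 0.24, 7.14 and 2.95 CPM in controls. The 20 oocyte-derived transcripts summed to 104 to 162 CPM against 24.2 to 232. Their part in the gene results was not tested.

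The signalling lists differed in their counts. The WNT list had 11 of 20 higher (median 0.04), with LRP6, a WNT co-receptor, at 12.4 ± 13.1 against 22.5 ± 13.0 CPM and TCF7L2, a beta-catenin partner, above the control median in 8 of 8 knockouts (27.0 ± 9.10 against 17.4 ± 11.7 CPM). The Hippo list had 11 of 20 higher (median 0.10), and its upstream kinase STK3 had a difference of 0.42 ± 0.34. Both lists turned without the 5 controls, to 6 of 20 higher (median -0.16) and 9 of 20 higher (median -0.07). In the FGF and EGF list 6 of 10 were lower, and its feedback inhibitors SPRED1 and DUSP6 went opposite ways, at -0.64 ± 0.27 and 0.55 ± 0.32. The Notch list had 11 of 12 lower (median -0.18), but its lowest p values were 0.152 for MAML1 and 0.255 for JAG2. In the IGF list 3 of 6 were higher, or 2 of 6 without the 5 controls. IGFBP2, an IGF-binding protein, was at 347 to 1634 CPM (median 827) against 229 to 994 (median 530), with a difference of 0.52 ± 0.24 that was 0.01 in females alone.

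Stress and death genes also had mixed signs. The ER stress list was 14 higher and 14 lower, or 13 higher and 15 lower without the 5 controls, with DDIT3 low, FICD high, and ASNS, asparagine synthetase of the amino acid response, at 72.3 ± 52.9 against 37.6 ± 20.1 CPM. Heat shock chaperones were 15 higher and 12 lower. BAG3, a co-chaperone, was at 24.6 ± 13.8 against 12.1 ± 9.41 CPM, and HSPD1, the mitochondrial chaperonin, at 234 ± 72.6 against 296 ± 43.4. The p53 list was 11 higher and 7 lower (median 0.09), but CDKN1A, the cell cycle inhibitor, had a difference of -0.63 ± 0.36 and MDM2, the p53 ligase, of 0.45 ± 0.27. Apoptosis genes were 11 higher and 12 lower, or 13 higher and 10 lower without the 5 controls, with CASP9 at 6.503 ± 5.47 against 12.2 ± 6.76 CPM, BNIP3L at -0.46 ± 0.24 and BOK at 0.37 ± 0.21. Antioxidant enzymes were lower in 19 of 25 (median -0.10), or 13 of 25 without the 5 controls. GCLC, of glutathione synthesis, lay below the control median in 8 of 8 knockouts (59.1 ± 15.7 against 79.8 ± 36.3 CPM), and NFE2L2, its regulator, had a difference of -0.33 ± 0.22. Hypoxia genes were 8 higher and 10 lower (median -0.09), and EGLN2 had a difference of 0.33 ± 0.20. Of 10 tested interferon response genes 5 were higher, with B2M at 0.44 ± 0.30 and IRF3 at -0.26 ± 0.22.

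Structural and nuclear lists completed the picture. Tight junction and blastocoel genes were lower in 14 of 25 (median -0.10), or in 19 of 25 without the 5 controls (median -0.12). In the fit without the 5, 7 of these were lower and 1 higher at an unadjusted p under 0.05. Of all genes in that fit, 5.73% were lower and 3.88% higher at that threshold. ATP1B2, a beta subunit of the sodium pump that fills the blastocoel, was at 23.4 ± 10.7 against 12.3 ± 8.71 CPM (0.67 ± 0.30), while TJP3, CLDN23 and PRKCI had differences of -0.37 ± 0.19, -0.53 ± 0.28 and -0.35 ± 0.20. Adherens junction genes were lower in 14 of 21 (median -0.05), or in 17 of 21 without the 5 controls (median -0.20). PKP3 was at 0.58 ± 0.36 and EPCAM at -0.26 ± 0.17 with all controls. Actin cytoskeleton genes were lower in 25 of 34 (median -0.07), where ARPC1A and ARPC1B, of the ARP2/3 complex, had differences of -0.21 ± 0.15 and -0.35 ± 0.26. Lysosome and autophagy genes were lower in 26 of 38 (median -0.08), and NPC2, which exports cholesterol from lysosomes, lay below the control median in 8 of 8 knockouts (45.9 ± 9.23 against 59.6 ± 15.01 CPM). GLA, a lysosomal galactosidase, had a fitted difference of -0.44 ± 0.21 and of -0.11 without the sex term. Cell cycle genes were 21 higher and 25 lower (median -0.02), or 24 higher and 21 lower without the 5 controls (median 0.01), with PCNA, the replication clamp, at 150 ± 50.9 against 188 ± 29.7 CPM, CDT1 at -0.52 ± 0.28 and CDK2 at 0.42 ± 0.24. Histone modifiers were 21 higher and 18 lower, led by SETDB1 (0.56 ± 0.32) and KDM4C (0.57 ± 0.35), and went to 12 higher and 27 lower without the 5 controls. DNA methylation genes were lower in 9 of 14, with DNMT3A at 833 ± 231 against 1056 ± 242 CPM and TRIM28 at 228 ± 101 against 279 ± 80.5. X-linked genes of the sex list were lower in 8 of 11 (median -0.06), with DDX3X at -0.40 ± 0.21 and UBE2A at -0.54 ± 0.33.

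**Figure D5:**
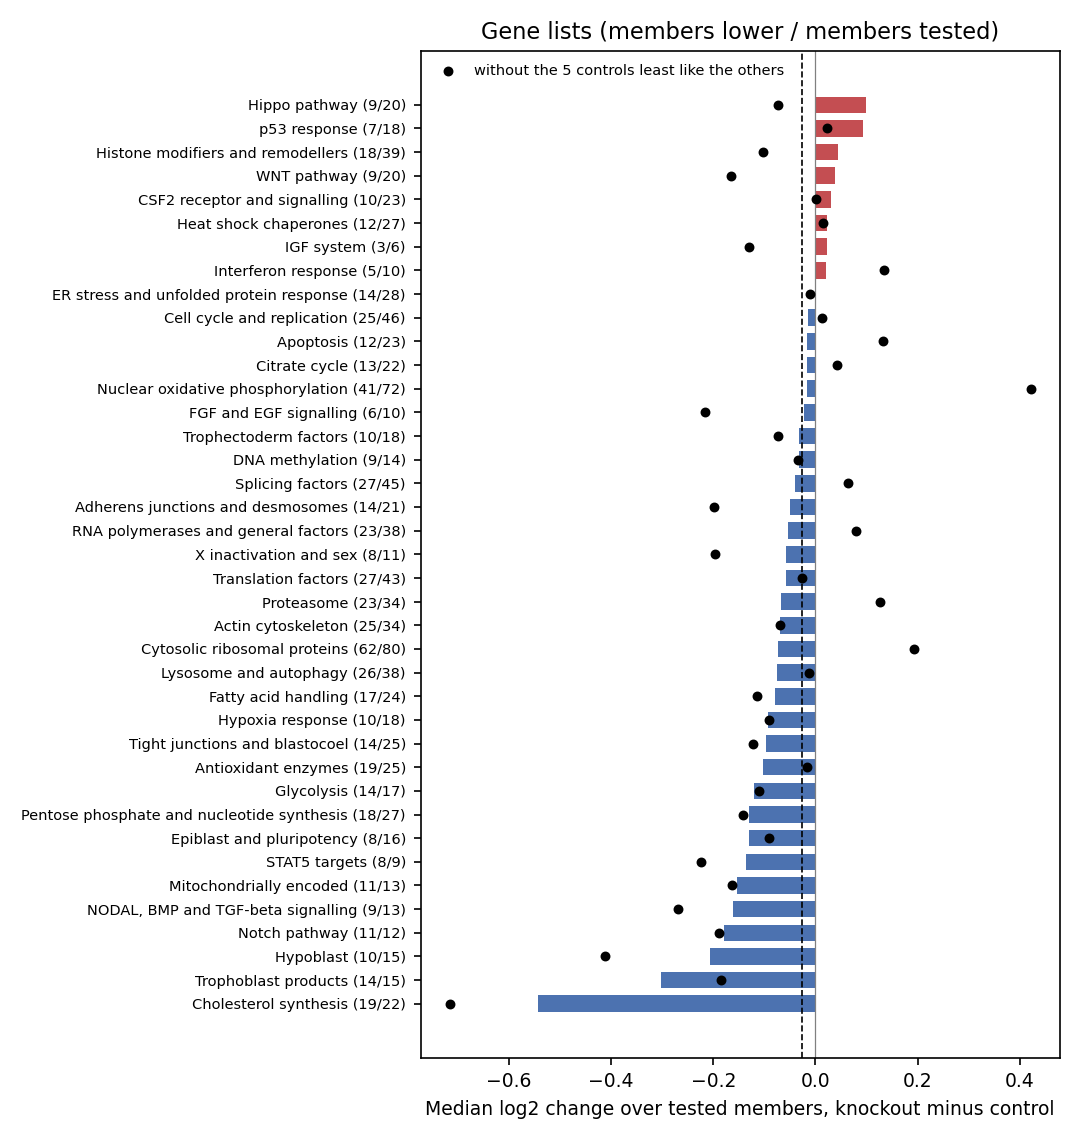
Median log2 difference, knockout minus control (x), over the tested members of each list with 5 or more tested genes (y; members lower of members tested in brackets). Bars use all 24 blastocysts, dots leave out the 5 controls least like the others, and the dashed line is the median of all genes tested, -0.03; cholesterol synthesis is lowest at -0.54, and nuclear oxidative phosphorylation moves from -0.02 to 0.42.

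The authors' deposited table of the same genotypes calls 15 genes at an FDR under 0.05, 10 higher and 5 lower in knockouts. Of these, 13 did not reach 5 reads in 12 of the kept embryos and were not tested here. In 10 of the 15, most of the reads lay in 1 embryo. The left-out control 12 held most reads of UNCX (655 of 687), SLC22A17 (622 of 712), TREM2 (1256 of 1257) and KCTD14 (961 of 1016), 4 of the 5 genes that table calls lower. For the fifth, VAMP5, control 61 held 10735 of 10764 reads. Among those it calls higher, knockout 75 held 1380 of 1504 reads of RAB33A, though RAB33A had a read in 8 of 8 knockouts and lay above the control median in all of them (median 15.6 against 2.89 CPM). THBS1 had 46 of 51 reads in knockout 31. DNAH14, LAMP5, ADIRF, ATP13A4, AREG and UPK1B had 6 to 21 reads over all 26 embryos. Both tested genes were led by 1 embryo. PPP1R8 had a log2 difference of 0.79 ± 0.81 and 2129 of its 2754 reads in knockout 58, and -0.16 without that embryo. NAGPA had a difference of 1.03 ± 0.64 and 645 of 1714 reads in knockout 17, and 0.36 without it.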

How the data were processed

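The deposited blastocyst table holds RPKM values per gene and embryo; per the submitters' processing notes, the authors used FastQC, featureCounts, edgeR and the build ARS-UCD1.2, with no versions or roles stated. The table also holds the authors' log2 fold changes, p-value and FDR columns. CPM was computed as RPKM × gene length / 1000, and reads as CPM over the smallest non-zero CPM of the embryo. All values came out whole within 0.01. Genes needed 5 reads in 12 of the 24 kept embryos. Values were tested as log2(CPM + 5) with limma 3.58.1 (R 4.3.3; trend, robust, sex as a term, two-sided), after a check on simulated data. Because a constant is added, fold changes of low genes are understated. Named genes were the receptor genes, the 10 per direction with the smallest p, 2 to 4 members with the smallest p of each list with 5 or more tested genes, and the genes called in the authors' deposited table. Members and lists were chosen with earlier results of these data known. Embryos are labelled as individuals, with no parents, so p-values measure the spread between these embryos. Counting limits cover counting error only, as reads carry no molecular identifiers. Values of some list members are not reported here.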

Additional observations from a re-analysis of the deposited data

Results flagged for a closer look

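Over the 8 knockouts, 151 values were looked at (genes named, list means and library measures). In 12 of them 1 embryo lay apart from the rest by a gap of more than 0.526 of the range on the log scale. Chance alone gives about 1 such value in 20, and the 12 were not tested against that rate. Knockout 4 was lowest for JAK1 (7.40 CPM, others 38.4 to 58.4), PCNA (51.8 CPM, others 124 to 226), STK3 (0 CPM, others 11.7 to 29.9) and PRPF19 (29.6 CPM, others 61.3 to 107). Its library is the shallowest of the kept knockouts, at 122766 reads, and its JAK1 value is 1 read. Knockout 3 was lowest for NANOG (0 CPM, others 20.1 to 56.2), DUSP6 (5.62 CPM, others 29.0 to 77.9) and NPC2 (28.1 CPM, others 41.3 to 57.2). Its library held 147212 reads, and its DUSP6 value is 1 read. Knockout 17 was lowest for HADH (4.68 CPM, which is 1 read; others 22.2 to 50.6) and highest for NAGPA (3020 CPM, others 8.54 to 74.0). Knockout 75 was lowest for B2M (17.9 CPM, others 39.5 to 72.6) and knockout 59 for YTHDC2 (9.35 CPM, others 21.4 to 39.4). Knockout 58 was highest for PPP1R8 (9090 CPM, others 7.40 to 28.0).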

How the results depend on the processing

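Under all 43 alternatives 0 genes were called at an adjusted p of 0.05, by limma-trend or voom. Leaving out each embryo gave 90 to 126 genes higher and 113 to 226 lower at an unadjusted p under 0.05, with the smallest adjusted p, 0.189, without knockout 58. Against 100 higher and 163 lower, the counts were 360 and 376 with no read filter, 179 and 321 by voom with quality weights, and 47 and 69 at equal depth, where fewer genes were tested (3912). A term for log10 reads gave 205 higher, and no sex term gave 290 lower. All 26 blastocysts gave 62 lower. The following alternatives were chosen after seeing the data. Adding control 12 gave 34 lower, adding knockout 57 gave 248 lower, and leaving out controls 35, 36, 37, 51 and 52 gave 329 higher and 486 lower. The cause of these moves was not tested. A stricter minimum on reads per library kept the same 24 embryos. Of 1888 list medians, 33 moved by more than 1 SD of the control embryos, 30 of them with control 12 in the fit; the median of all genes was then 0.13 with all 26 blastocysts and 0.19 with control 12 added, against -0.03. Of 4293 gene values, 22 changed sign. With all 26 blastocysts these were GAPDH (0.39), DLAT (0.072), B2M (-0.21), IRF3 (0.10), DNMT3A (0.0019), TRIM28 (0.25), GTF2F1 (0.16) and ARPC1B (0.048). With control 12 added they were KRT19 (0.0014), GAPDH (0.35), DLAT (0.021), NFE2L2 (0.057), PCNA (0.075), IRF3 (0.065), TJP3 (0.043), DNMT3A (0.092), TRIM28 (0.18), PSMD11 (0.18), GTF2F1 (0.11) and ARPC1B (0.17). At equal depth PSMD11 was 0.0067, and leaving out each embryo gave PPP1R8 -0.16 (without knockout 58) to 1.06. No paired analysis was possible because no embryo number occurs in both groups. The shallowest libraries limit single values, since 1 read there is worth up to 8.07 CPM.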
